A study of Mus musculus with 4 samples.

Results

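The small leucine-rich proteoglycans are a family of secreted matrix proteins, and 10 of their genes (Dcn, Bgn, Aspn, Lum, Fmod, Prelp, Omd, Ogn, Epyc and Podn) were followed here in mouse mammary terminal end buds with and without Ovol2. Members were taken by gene symbol, as the probe sets annotated to exactly 1 gene of the family. Each of the 10 had 1 such probe set, among 19938 genes with a named probe set on the array. Terminal end buds, the growing tips of the pubertal mammary ducts, were dissected from female C57/BL6 mice and profiled on 4 Affymetrix whole-transcript arrays. The 2 control arrays held pooled RNA of 2 mice each, with the genotype Ovol2flox/+ in the sample labels, and per the protocol some control mice may also have carried K14-Cre. The 2 knockout arrays held pooled RNA of 3 mice each, with the genotype Ovol2flox/-;K14-Cre. Both groups thus carried a floxed Ovol2 allele, and the knockout mice also carried a null allele in every cell. In K14-Cre mice the keratin 14 promoter drives the recombinase, in basal epithelial cells and skin. The labels give an age of 4.5 weeks and the series text 24 to 25 days. Littermates shared cages, and nothing in the labels ties a control pool to a knockout pool.

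Small leucine-rich proteoglycans consist of a core protein of leucine-rich repeats, to which glycosaminoglycan chains are attached in many members. They bind collagen fibrils in the interstitial matrix and regulate how wide and how evenly spaced the fibrils become, and several also bind growth factors or their receptors. Fibroblasts are their main source in most soft tissues, the stroma around mammary ducts included, while osteomodulin and epiphycan are best known from bone and cartilage. Ovol2, a zinc finger repressor, is known for holding epithelial cells in their epithelial state.

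Values are log2(signal + 16) of the deposited linear signals after quantile normalization between arrays. Differences are knockout minus control with n = 2 arrays per group, the value after ± is the SE from limma, and the threshold is a Benjamini-Hochberg adjusted p of 0.05 over 11963 tested genes. A gene was tested if its mean over all 4 arrays reached 7.97 on the log2 scale, about 235 in linear signal, and 8 of the 10 genes did. That mean includes the knockout arrays, so a gene can pass through the group where it is high. Levels are compared within a gene only, because probe sets differ in how brightly they report. Epithelial markers were bright in every array (18 of 18 tested, mean log2 value between 11.54 and 11.63). The targeted gene Ovol2 read 8.05 and 8.31 in the controls against 7.85 and 7.73 in the knockouts on the log2 scale, a difference short of the threshold (limma, adjusted p = 0.17). Whether its probes lie in the deleted part of the gene was not tested, so this reading does not check the labels.

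Of the 8 tested genes, 7 rose in the knockout, Podn did not pass, and 0 fell by limma's test, with 0 lower at an unadjusted p under 0.05. Over all tested genes 10.7% passed in either direction, 6.29% as higher and 4.45% as lower. Lum rose 3.84-fold, Fmod 3.02-fold, Dcn 2.05-fold and Prelp 1.81-fold, and the rises of Bgn, Aspn and Ogn lay between 1.38-fold and 1.61-fold. A rise of at least 2-fold was called for 3 of the 8 and for 0.66% of all tested genes. The median log2 difference of all 10 genes, filter aside, was 0.63, against -0.05 over all 19938 genes. That of the 8 was 0.78, against -0.02 over all tested genes. Both knockout arrays lay above both control arrays for the 7 genes that rose. That order held for 26.4% of all tested genes, called or not, while 29.9% had the reverse order. The 7 were called on these same arrays, so the order adds no support to the calls. Podn had the same order, but it was tested only through its knockout arrays, as its control arrays lay under the filter level. The summed deposited signal of the 10 probe sets was 8667 and 9872 in the control arrays against 16528 and 20362 in the knockout arrays. Such a sum is weighted toward bright probe sets, here Dcn and Bgn (3057 and 2344 in control replicate 1). With a variance prior without the mean trend, or with a robust prior, 4 of the 7 calls remained in each case, and Lum, Dcn and Aspn were among them under both. Those fits called 1.2% and 6.85% of all tested genes as higher. Omd and Epyc lay under the filter in both groups.

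**Figure D1:**
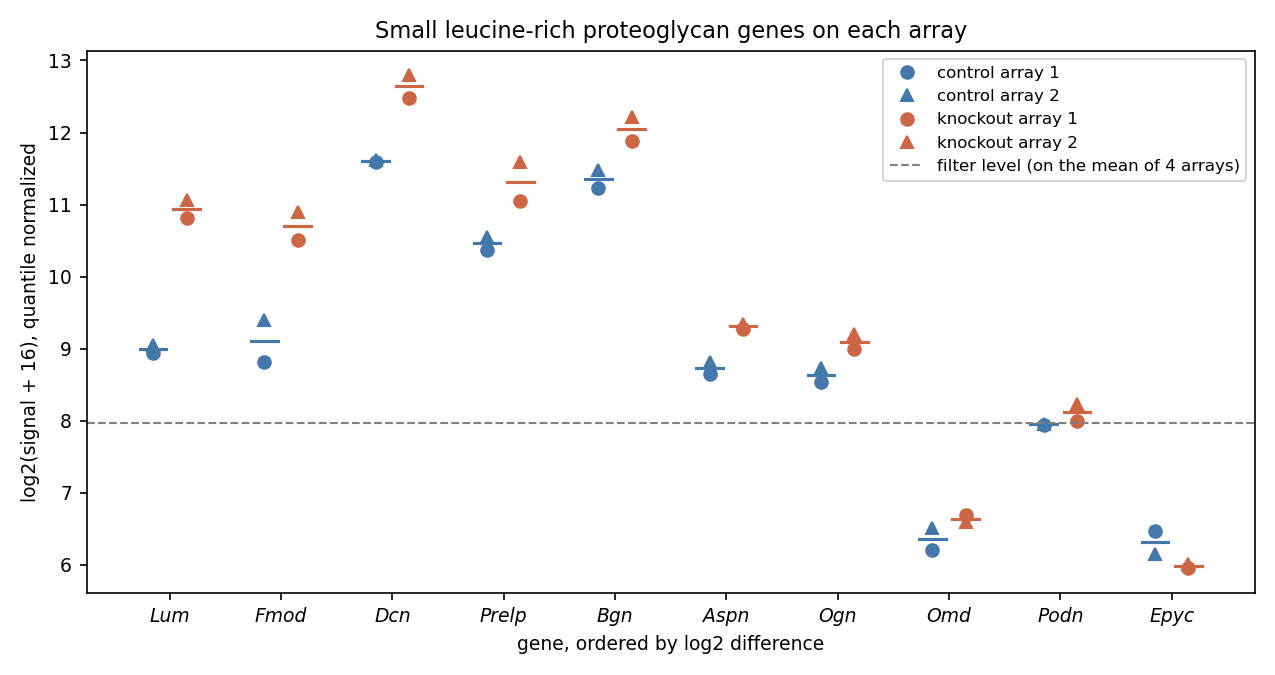
Log2 signal of each small leucine-rich proteoglycan gene on the 4 arrays, with circles for replicate 1, triangles for replicate 2 and short bars for the group means (n = 2). The knockout arrays lie above the control arrays for every gene but Epyc, and Omd and Epyc lie below the dashed filter level of 7.97.

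**Figure D2:**
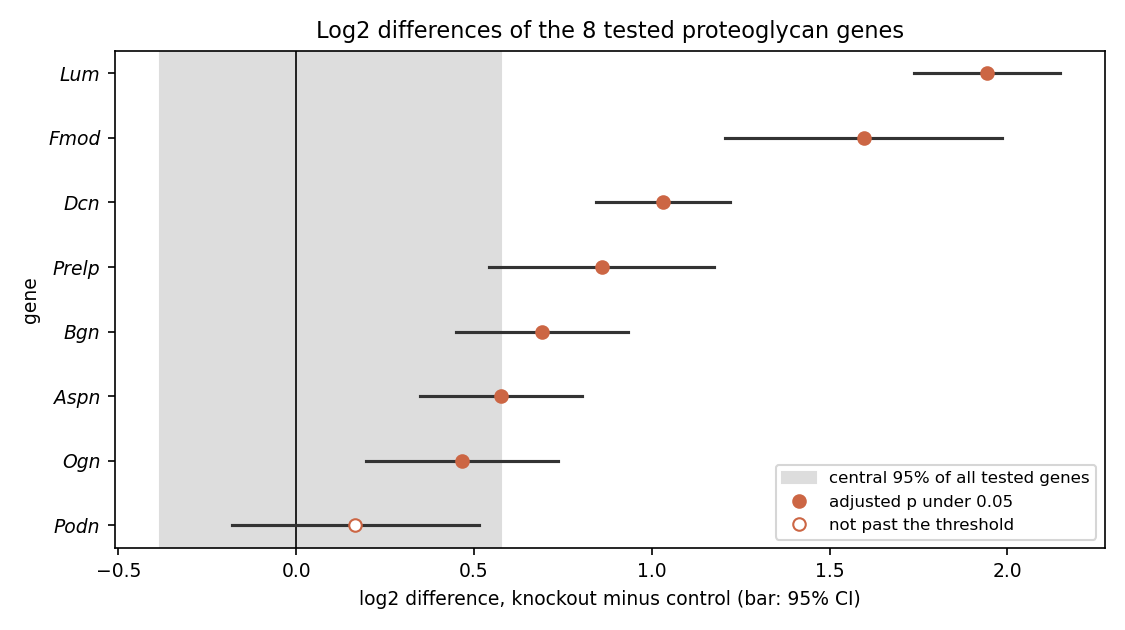
Log2 difference, knockout minus control, of the 8 tested genes with 95% confidence intervals from limma. The grey band is the central 95% of all tested genes (-0.38 to 0.57), and filled points passed an adjusted p of 0.05.

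Class I members carry chondroitin or dermatan sulfate, except asporin. Dcn (probe set 10365974) encodes decorin, which binds type I collagen fibrils and sequesters TGF-beta. Its log2 values were 11.60 and 11.62 in the controls against 12.49 and 12.79 in the knockouts. The controls were close together, and the lower knockout array lay 0.87 above the higher control array. The log2 difference was 1.03 ± 0.08 (95% CI 0.84 to 1.22, limma, adjusted p = 0.000305), and it passed under all 14 alternative settings. In deposited signal, Dcn read 3057 and 3163 in the controls against 5769 and 7081 in the knockouts.

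Bgn (probe set 10600169), on the X chromosome, encodes biglycan, a close relative of decorin that can also engage Toll-like receptors on macrophages. It read 11.23 and 11.48 in the controls against 11.88 and 12.21 in the knockouts on the log2 scale. Within each group the second array was the higher, and the groups did not overlap. The log2 difference was 0.69 ± 0.11 (limma, adjusted p = 0.00454), a call lost without the trend (adjusted p = 0.0727) and with a robust prior (adjusted p = 0.134). Aspn (probe set 10405047) encodes asporin, which has an aspartate-rich end in place of glycosaminoglycan chains and binds collagen and TGF-beta. It read 8.65 and 8.81 in the controls against 9.28 and 9.34 in the knockouts. The log2 difference of Aspn was 0.58 ± 0.10 (limma, adjusted p = 0.00792), and without control replicate 1 it was 0.50 and did not pass (adjusted p = 0.069).

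Class II members bear keratan sulfate or unmodified sugar chains and bind collagen fibrils, and Lum and Fmod had the largest differences of the 8 tested genes. Lum (probe set 10365983) encodes lumican, which limits the growth of collagen fibrils and is known for the transparency of the cornea. Its log2 values were 8.93 and 9.05 in the controls against 10.82 and 11.06 in the knockouts. The gap between the lowest knockout and the highest control array was 1.76, several times the distance between the arrays of either group. In deposited signal this was 460 and 513 against 1831 and 2085. The log2 difference was 1.94 ± 0.09 (95% CI 1.74 to 2.15, limma, adjusted p = 1.35e-05), and it lay between 1.82 and 2.06 over the 14 alternative settings, past the threshold in each.

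Fmod (probe set 10349947) encodes fibromodulin, which shares a collagen binding site with lumican and guides cross-linking of fibrils. It read 8.82 and 9.40 in the controls against 10.51 and 10.90 in the knockouts on the log2 scale. The controls differed by 0.58, the widest control gap among the tested members, yet both knockout arrays were higher. The log2 difference was 1.60 ± 0.17 (limma, adjusted p = 0.000933), and it did not pass with a robust prior (adjusted p = 0.124). Prelp (probe set 10357870) encodes prolargin, which carries a proline- and arginine-rich end that binds heparan sulfate and is thought to tie basement membranes to collagen. It read 10.37 and 10.55 in the controls against 11.05 and 11.59 in the knockouts. The knockout arrays differed by 0.54, the widest knockout gap of the tested members. The log2 difference of Prelp was 0.86 ± 0.14 (limma, adjusted p = 0.00581), lost without the trend (adjusted p = 0.0768) and with a robust prior (adjusted p = 0.22). Omd (probe set 10405058), encoding osteomodulin of mineralizing bone, read 6.21 and 6.51 in the controls against 6.69 and 6.59 in the knockouts, under the filter. Its log2 difference was 0.28, with a 95% CI of -0.06 to 0.62 in the fit without the filter.

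Class III was represented by Ogn and Epyc. Ogn (probe set 10405063) encodes osteoglycin, or mimecan, which takes part in collagen fibril assembly. It read 8.53 and 8.73 in the controls against 8.99 and 9.20 in the knockouts on the log2 scale. The groups were apart by 0.26, about the distance between the arrays within a group. The log2 difference was 0.47 ± 0.12 (limma, adjusted p = 0.037). It did not pass with median centring (adjusted p = 0.0665), without the trend (adjusted p = 0.0887), when control replicate 1 was left out (adjusted p = 0.259) or when knockout replicate 2 was (adjusted p = 0.108). Epyc (probe set 10365991), the cartilage gene of epiphycan, read 6.47 and 6.15 in the controls against 5.95 and 6.02 in the knockouts. It lay under the filter, with a log2 difference of -0.33 and a 95% CI of -0.67 to 0.01 in the fit without the filter.

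Podn (probe set 10514939), the class V gene of podocan, encodes a collagen-binding protein known to restrain smooth muscle cell growth. It read 7.95 and 7.95 in the controls against 7.999 and 8.23 in the knockouts on the log2 scale, the controls just under the filter level and the knockouts just over it. Its log2 difference was 0.17 ± 0.16 (95% CI -0.18 to 0.51, limma, adjusted p = 0.55), and it passed under 0 of the 12 alternative settings that tested it.

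The order of the 2 arrays within each group was also shared by the tested members. After quantile normalization, for all 8, knockout replicate 2 was above knockout replicate 1 and control replicate 2 above control replicate 1, which held for 44.0% and 60.1% of all tested genes. In the deposited signals Aspn had the reverse order in the knockouts (630 and 627) and Podn in the controls (234 and 222). The mean deviation of the 8 from their own 4-array means was -0.55 and -0.36 in the control arrays against 0.31 and 0.60 in the knockout arrays, in log2 units. The 5 tested genes outside the family whose 4 deviations lay nearest to this mean profile, by Euclidean distance over the 4 arrays, were Kdr, Reck, Aplnr, Igfbp5 and Fn1, with distances from 0.071 to 0.096. Kdr passed the filter only through its knockout arrays. Dcn (0.17) and Prelp (0.19) were the members nearest to the profile, and Lum (1.03) was the farthest.

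Fibroblast markers, a list that holds none of the 10 genes, shifted in the same arrays. Of 14 tested markers 10 rose and 0 fell (0 lower at an unadjusted p under 0.05), with a median log2 difference of 0.85 (0.66 over the 19 on the array). The platelet-derived growth factor receptor genes Pdgfra and Pdgfrb rose by 1.62 ± 0.11 and 1.25 ± 0.15 on the log2 scale, the laminin gene Lama2 by 1.94 ± 0.18 and the basement membrane collagen gene Col15a1 by 1.56 ± 0.15 (limma, adjusted p from 0.000124 to 0.00142). Lama2 was tested only through its knockout arrays, as its control arrays (7.25 and 7.85) lay under the filter level. The summed deposited signal of the 19 markers on the array is also weighted toward bright probe sets. It was 12076 and 12386 in the controls against 17889 and 19463 in the knockouts. No marker was at 0, and Clec3b, Fap, Pi16, Tcf21 and Twist2 lay under the filter. More fibroblasts in a pool, more RNA per fibroblast and expression by other cells cannot be told apart in these bulk samples. The part of each in the results above was not tested. Among tested endothelial markers 5 of 13 rose (median 0.51), among adipocyte markers 6 of 8 (median 0.51) and among pericyte and smooth muscle markers 3 of 6 (median 0.40), with 0 that fell or were lower at an unadjusted p under 0.05 in each list. Over all genes of these lists on the array the medians were 0.49, 0.26 and 0.21. Among the endothelial genes that rose, Kdr was tested only through its knockout arrays, as its control arrays (7.57 and 7.82) lay under the filter level. The adipocyte genes Adipoq, Lep, Cidec, Plin4 and Plin1, named after their values were seen, had log2 differences between -0.08 and 0.11, the first 4 of them under the filter. Of 18 epithelial markers 17 did not pass and Trp63, the basal cell factor gene of p63, fell by 0.36 ± 0.06 on the log2 scale (median -0.05). At an unadjusted p under 0.05 by limma, 6 of the 18, Trp63 among them, were lower and 1, Krt14, was higher. Over all 11963 tested genes 1482 were lower and 1569 higher at that level. The basal keratin genes Krt14 and Krt5, named after their values were seen, had log2 differences of 0.43 and -0.02 (limma, adjusted p = 0.0993 and 0.923). The basal genes of the list thus shared no direction. Of 8 macrophage markers 7 did not pass and the lysozyme gene Lyz2 fell (median -0.04). Of 3 tested lymphocyte genes, Cd79b and Ccr7 fell by 1.91 and 0.84. Cd79b passed the filter only through its control arrays. Among 5 tested nerve and Schwann genes Scn7a rose by 2.10, Ngfr fell by 0.67 and 3 did not pass. Cdh19, under the filter and named after its values were seen, differed by 1.08 in the fit without the filter (limma, adjusted p = 0.00185). Of 4 skeletal muscle and 3 cartilage, bone and tendon genes tested, 0 passed by limma, with 0 and 2 at an unadjusted p under 0.05.

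**Figure D3:**
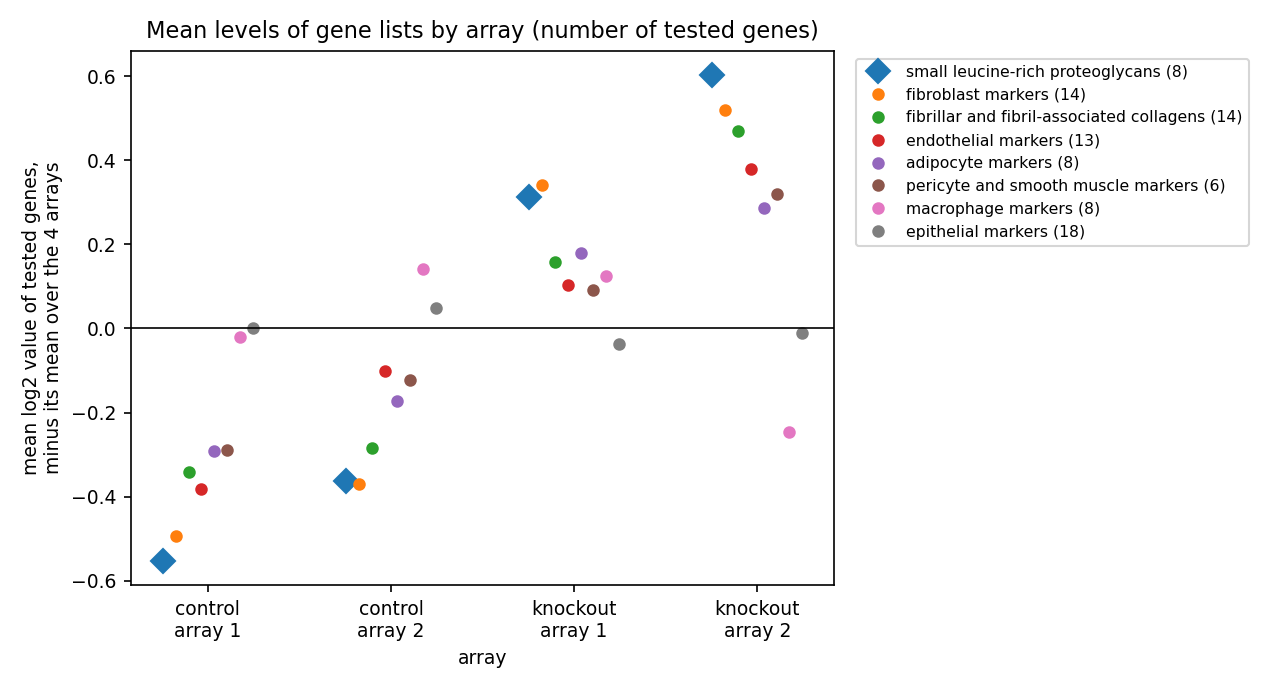
Mean log2 value of the tested genes of each list on each array, minus its mean over the 4 arrays, with the number of tested genes in parentheses. The proteoglycan genes (diamonds, -0.55 and -0.36 in controls, 0.31 and 0.60 in knockouts) lie near the fibroblast markers (-0.49, -0.37, 0.34 and 0.52), and the epithelial markers stay between -0.04 and 0.05.

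To ask which members differed by more or less than these markers, the mean of the 14 fibroblast markers was subtracted from every gene in each array and the fit repeated. The markers' mean log2 difference was 0.86, with an SD over markers of 0.60. Lum stood above the marker mean and Podn below it in the knockout compared with the control. Single markers rose as far as these members: Lama2 by 1.94, as did Lum, and Pdgfra by 1.62 against 1.60 for Fmod. The SEs and p-values of this fit do not include the SD over markers. Relative to the marker mean, Lum read -0.17 and -0.17 in the controls against 0.88 and 0.94 in the knockouts. The relative log2 difference of Lum was 1.08 ± 0.15 (limma, adjusted p = 3.12e-11). Podn read -1.15 and -1.27 in the controls against -1.94 and -1.88 in the knockouts, a relative difference of -0.70 ± 0.21 (limma, adjusted p = 0.00106). For Lum the arrays of a group lay close together and the groups far apart. Podn itself differed by only 0.17 (limma, adjusted p = 0.55), so its relative difference mostly restates the rise of the marker mean. The relative difference of Fmod was 0.73 ± 0.16 (limma, adjusted p = 3.24e-06) and that of Ogn was -0.40 ± 0.18 (limma, adjusted p = 0.0293). Dcn (95% CI -0.11 to 0.45), Prelp (-0.29 to 0.28), Bgn (-0.45 to 0.11) and Aspn (-0.63 to 0.06) did not pass, and these intervals leave room for differences from the markers in either direction. Dcn did pass without the filter (0.32, adjusted p = 0.00299) and with the filter at the 60th percentile (0.28, adjusted p = 0.0479). Aspn passed as lower when knockout replicate 1 was left out (-0.34, adjusted p = 0.0173). By this measure 0.343% of all tested genes were higher and 96.9% lower, so a member below the marker mean is no exception. This fit took the variance as known from all genes, which share the error of the marker mean, so its p-values may be too small. With each gene's own variance and 2 residual degrees of freedom, an alternative chosen after seeing the data, Lum, Ogn and Podn still passed (adjusted p = 0.0435 each, in a fit that called 0.15% of all tested genes higher and 79.4% lower), and Fmod did not (adjusted p = 0.104). The unadjusted p of Fmod in that fit was 0.100. Because most genes were called in both relative fits, an adjusted p under 0.05 is little stricter there than an unadjusted one. With control replicate 1 left out Fmod was also lost (0.53, adjusted p = 0.055). The Ogn call ended when control replicate 1 (adjusted p = 0.179) or control replicate 2 (adjusted p = 0.268) was removed, and in the fit without the filter (adjusted p = 0.107).

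**Figure D4:**
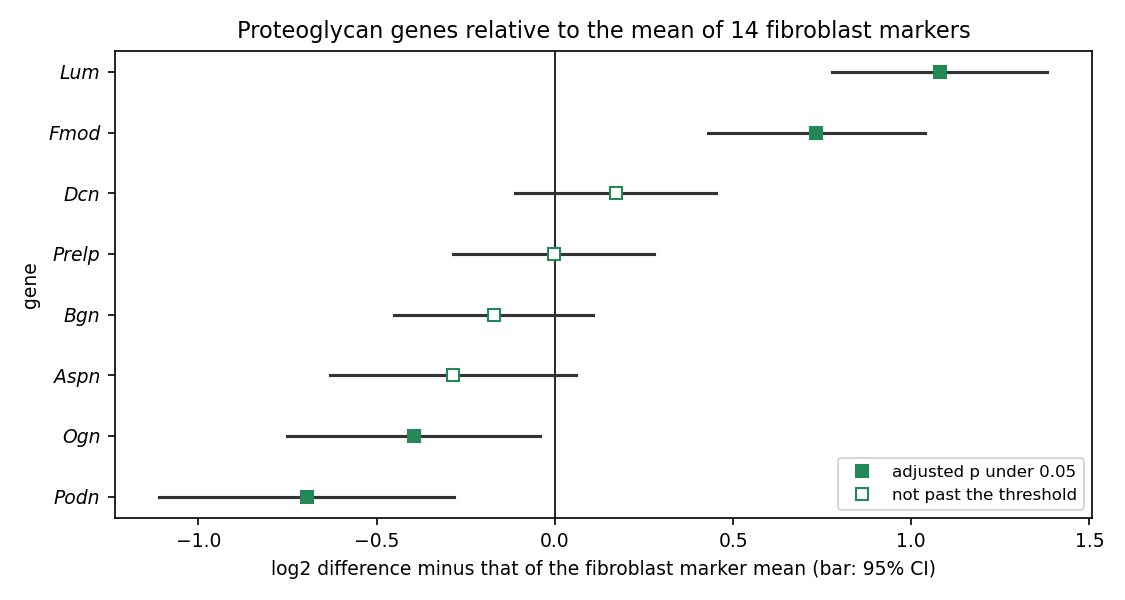
Log2 difference of each tested proteoglycan gene after the mean of 14 fibroblast markers was subtracted in each array, with 95% confidence intervals from limma. Lum (1.08) and Fmod (0.73) lie above 0, Ogn (-0.40) and Podn (-0.70) below it, and the intervals of the other 4 genes include 0.

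Of the 10 genes all but Bgn and Podn sit in 3 clusters of the mouse genome, in the gene order of RefSeq for GRCm38.p6. On chromosome 10 the order of protein-coding genes is Dcn, Lum, Kera and Epyc. Kera, the gene of keratocan, a keratan sulfate proteoglycan of the cornea, lies between Lum and Epyc and was under the filter. Kera read 5.92 and 6.49 in the controls against 7.45 and 7.65 in the knockouts on the log2 scale, a difference of 1.34 ± 0.19 in the fit without the filter (limma, adjusted p = 0.00312). Epyc, next in order and also under the filter, did not pass in that fit (limma, adjusted p = 0.293). Beside Epyc lies Ccer1, which was under the filter and had a log2 difference of -0.04. Btg1, on the Dcn side, and Atp2b1, beyond Ccer1, differed by 0.04 ± 0.05 and -0.16 ± 0.05 and were short of the threshold (limma, adjusted p = 0.697 and 0.105).

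On chromosome 1 Prelp and Fmod are neighbours, with the opticin gene Optc on the Prelp side. Optc, under the filter, read 7.67 and 7.64 in the controls against 7.83 and 7.87 in the knockouts, a log2 difference of 0.20. Btg2, a gene that restrains cell division, lies beyond Fmod and rose by 0.28 (limma, adjusted p = 0.00688). On chromosome 13 the order is Ecm2, Aspn, Omd and Ogn, all within the span of Cenpp, a centromere protein gene. Ecm2, a relative of the family, was under the filter and read 6.93 and 7.46 in the controls against 7.94 and 8.03 in the knockouts, a log2 difference of 0.79 ± 0.17 in the fit without the filter (limma, adjusted p = 0.0243). Cenpp differed by -0.32, short of the threshold (limma, adjusted p = 0.223), and neither did Nol8 (-0.17) and Iars (-0.22) beyond Ogn. Podn and Bgn have no family member beside them. The nearest neighbours of Bgn, Haus7 and Atp2b3, had log2 differences of -0.23 and -0.20, and those of Podn, Slc1a7 and Scp2, had -0.19 and -0.13.

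**Figure D5:**
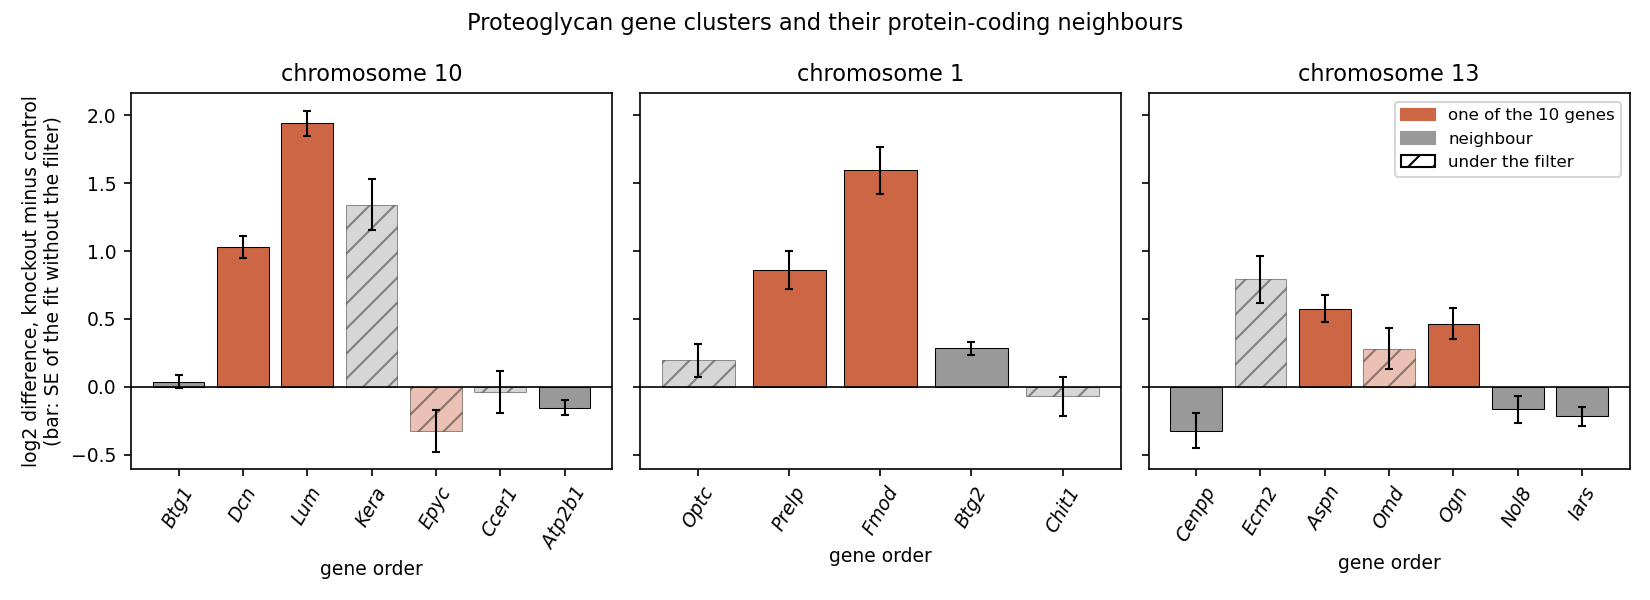
Log2 difference, knockout minus control, of the proteoglycan genes (orange) and their protein-coding neighbours (grey) in gene order on chromosomes 10, 1 and 13, with SEs from the fit without the filter. Hatched bars are genes under the filter. Dcn, Lum and Kera (1.03, 1.94 and 1.34) stand above their outer neighbours on chromosome 10.

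Among 8 other leucine-rich matrix genes on the array, only Chadl and Nyx could be tested, and 0 passed by limma, with 0 at an unadjusted p under 0.05. Besides Kera, Ecm2 and Optc, those under the filter were Chad, Nepn and Podnl1, with log2 differences of 0.04, -0.11 and -0.16.

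The promoter windows below were chosen because Fmod rose the most among the members with a window, and because Prelp and Podn held the matches to the motifs of OVOL and ZEB factors. RefSeq windows for GRCm38.p6 were matched to 8 of the 10 genes, 10 windows in all, and the 250 bases before each start site were searched. Motif matches on either strand are in capitals.
Fmod, chr1:134037004-134037253, plus strand: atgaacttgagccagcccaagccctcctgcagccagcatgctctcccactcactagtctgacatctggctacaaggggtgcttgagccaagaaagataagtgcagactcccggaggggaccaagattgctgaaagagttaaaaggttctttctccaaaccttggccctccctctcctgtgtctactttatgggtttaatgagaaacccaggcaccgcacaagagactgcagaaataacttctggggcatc
Prelp, chr1:133921402-133921651, minus strand: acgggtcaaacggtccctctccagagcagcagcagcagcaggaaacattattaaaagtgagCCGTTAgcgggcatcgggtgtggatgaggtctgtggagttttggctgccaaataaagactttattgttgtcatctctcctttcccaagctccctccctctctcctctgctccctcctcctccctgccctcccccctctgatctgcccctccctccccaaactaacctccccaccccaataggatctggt
Podn, second start site, chr4:108030987-108031236, minus strand: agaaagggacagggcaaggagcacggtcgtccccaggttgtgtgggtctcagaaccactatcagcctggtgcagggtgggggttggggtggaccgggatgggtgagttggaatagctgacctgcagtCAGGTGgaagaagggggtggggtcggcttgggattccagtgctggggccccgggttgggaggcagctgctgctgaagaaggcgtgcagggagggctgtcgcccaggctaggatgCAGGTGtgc

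The capitals in Prelp mark the OVOL motif CCGTTA, at position -189 from the start site. It was found in 1 of the 10 member windows and in 2.18% of all 32851 windows. The capitals in Podn mark the E-box CACCTG bound by ZEB factors, read on the other strand as CAGGTG, at positions -123 and -9. That motif was found in 1 of the 10 member windows, against 17.2% of all windows. In Fmod none of the 5 motifs was found. The AP-1 motif TGANTCA was found in 0 of the 10 member windows (6.75% of all), the SP1 motif GGGCGG in 2 (32.7%) and the TATA box TATAAA in 2 (12.4%). The motifs do not overlap in the windows printed, and a match describes the letters of a window, not binding.

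Genes of interstitial collagens, the fibril-forming types and type VI among them, rose in part. Of 14 tested collagen genes 7 rose, 0 fell and 0 were lower at an unadjusted p under 0.05, with a median log2 difference of 0.65. The type VI collagen genes Col6a1, Col6a2 and Col6a3 rose by 1.42 ± 0.17, 1.28 ± 0.17 and 1.24 ± 0.11 on the log2 scale, and Col1a2, a chain of type I collagen, by 1.19 ± 0.11. Of 20 tested genes of fibril assembly and cross-linking 5 rose, 1 fell and 14 did not pass (median 0.17, and 0.08 over the 23 on the array). The lysyl oxidase genes Loxl1 and Lox rose by 1.15 ± 0.12 and 1.12 ± 0.22, the fibronectin gene Fn1 by 1.01 ± 0.10 and the dermatopontin gene Dpt by 0.87 ± 0.12. The control mean of Lox (7.73) lay under the filter level, so Lox was tested through its knockout arrays. Dpt and Loxl1 are also on the fibroblast list. The gene that fell, named after its values were seen, was the lysyl hydroxylase gene Plod2 (-0.46).

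The genes of the enzymes that build the sugar chains were counted in the same way, by chain type. Of 19 tested genes of chondroitin and dermatan sulfate synthesis 0 rose and 2 fell by limma (median -0.01), with 0 higher and 5 lower at an unadjusted p under 0.05. Over all 11963 tested genes 1569 were higher and 1482 lower at that level. Chst11, a chondroitin sulfotransferase gene, fell by 0.52 ± 0.10 on the log2 scale from 9.52 and 9.68 to 9.16 and 8.99, and the chain polymerase gene Chsy1 fell by 0.37 ± 0.07. Of 6 tested keratan sulfate genes 2 rose, with 0 that fell or were lower at an unadjusted p under 0.05 (median 0.25). The 2 under the filter, Chst1 and Chst4, had log2 differences of 0.91 and -0.20. B3gnt7, which extends the keratan sulfate backbone, rose by 0.34 ± 0.09 and the galactosyltransferase gene B4galt1 by 0.24 ± 0.06 (limma, adjusted p = 0.0349 and 0.0309). These enzymes also act on other substrates and are made by epithelial cells too.

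Among 8 tested proteases known to cleave core proteins of the family 3 rose, with 0 that fell or were lower at an unadjusted p under 0.05 (median 0.49). The gelatinase gene Mmp2 rose by 1.61 ± 0.10, the aggrecanase gene Adamts4 by 0.76 ± 0.17 and the serine protease gene Htra1 by 0.67 ± 0.09 on the log2 scale (limma, adjusted p from 5.97e-05 to 0.0236). Among the 6 protease genes under the filter, Ctsk, Mmp3 and Mmp13 had log2 differences of 1.36, 1.07 and 0.98. Those of Mmp9, Tll1 and Tll2 lay between -0.12 and 0.06. Among 22 tested growth factors and receptors that bind members of the family 8 rose, 1 fell and 13 did not pass (median 0.19). Kdr, a receptor of endothelial cells that decorin is reported to bind, rose by 0.88 ± 0.17, the growth factor gene Igf1 by 0.60 ± 0.12, the scavenger receptor gene Lrp1 by 0.58 ± 0.08 and Tgfb3 by 0.47 ± 0.08. As said above, Kdr was tested only through its knockout arrays. The gene that fell, named after its values were seen, was the hyaluronan receptor gene Cd44 (-0.24).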

How the data were processed

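Signals came from 4 Affymetrix arrays of terminal end bud RNA. The deposited table holds 1 linear signal intensity per probe set and array for 35556 probe sets, made with Affymetrix Expression Console 1.1.1 and PLIER 2.0, per the submitters' processing notes. The authors' background correction and normalization between arrays (not given in the sources used here) stay as deposited, and no detection calls were used. The 21789 probe sets with 1 symbol gave 19938 genes (highest mean per gene), and 21698 Entrez identifiers were found in RefSeq, which changed 0 symbols. Values were log2(signal + 16), quantile normalized, with genes under the 40th percentile of the 4-array mean left out. limma 3.58.1 in R 4.3.3 (lmFit, eBayes with trend, tested on simulated data) had 2 residual and 7.58 prior degrees of freedom. Depth in the sense of reads does not apply, and 2 arrays per group limit the precision. The p-values rest on the spread between pools, much of it borrowed from other genes through the prior. They do not measure the spread between single mice. The members and gene lists were chosen with earlier results of these data known. Named genes were all members, up to 4 called genes with the largest difference per list, the 5 nearest profiles, and the neighbours in gene order. Some others are given as under the filter or as named after their values were seen.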

Additional observations from a re-analysis of the deposited data

How the results depend on the processing

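The members that rose numbered 7 in the reported fit, 4 without the trend, 4 with a robust prior, and between 5 and 7 when single arrays were left out, and 0 fell under any of the 14 alternative settings. No other setting moved that count by over 1.5 times. Over all genes, 753 rose and 532 fell. These counts were 480 and 273 with median centring, 143 and 45 without the trend, and 1170 and 1076 with the replicate numbers as a block. With single arrays left out they ranged from 315 and 143, without control replicate 1, to 1159 and 1183, without knockout replicate 1. Deviations of same-numbered arrays correlated across genes at r = -0.20, so the replicate numbers were not taken as pairs. The block left 7 members called, and crossing the numbers, an alternative chosen after seeing the data, gave 715 and 488 genes and 7 members. Relative to the fibroblast markers, 2 members were higher and 2 lower. The block also brought Dcn above (adjusted p = 0.0142) and Bgn below the markers (adjusted p = 0.0133). With single arrays left out 1 to 2 were higher, 1 without control replicate 1, and 1 to 3 lower, 3 without knockout replicate 1 and 1 without any other array. There were 0 lower with the filter at the 60th percentile, which removed Podn, Ogn and Aspn from the test, 1 lower with the crossed block, and 1 higher without variance moderation. For Prelp the relative difference changed sign, from -0.0031 to 0.050 with an offset of 64, 0.11 with the filter at the 60th percentile and 0.15 without the filter, within -0.18 to 0.18 when single arrays were left out. Causes were not tested, except that the filter changes which markers enter the mean. How far signals lie above background cannot be read from these files.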
